A study of Rattus norvegicus with 36 samples.

Results

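Chemokines are small secreted proteins that steer leukocytes along a gradient, and the RNA of 8 of them was followed here in rat kidney: Cxcl1, Cxcl2, Cxcl10, Ccl2, Ccl3, Ccl4, Ccl5 and Ccl20. Members were the array probes whose platform annotation carries 1 of these symbols. There were 8 such probes among 9911, covering 7 of the 8 genes, with 2 probes for Ccl20. No probe carried the symbol Ccl3, which is not analysed here. All 8 probes were tested.

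Kidney RNA from 31 male rats aged 6-8 weeks was measured on 36 single-colour CodeLink arrays, 2 arrays for each of 5 rats. Kidneys were taken 2 h (IR2, 4 rats) or 8 h (IR8, 3 rats) after 40 min of bilateral renal ischemia and reperfusion. A further ischemic group of 3 rats had 50 µg of α-melanocyte-stimulating hormone (αMSH, known to dampen inflammation) and was sampled at 2 h (IR2M). Mercuric chloride, a toxin of the proximal tubule, was given at 4 mg/kg under the skin and kidneys were taken at 2 h (Hg2, 3 rats) or 8 h (Hg8, 3 rats). Cisplatin, a nephrotoxic platinum drug, was given at 20 mg/kg into the peritoneum with sampling at 2 h (C, 3 rats). The controls were 3 rats at 8 h after a 40 min sham operation (S), 4 volume-depleted rats given furosemide at 20 mg/kg at 0 and 8 h plus a sodium-deficient diet and sampled at 24 h (VD), and 5 untreated normal rats (N). No sham rats were sampled at 2 h, so at 2 h effects of surgery and ischemia cannot be told apart. The labels place the 2 h time before leukocytes enter the kidney.

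The arrays came in 2 lots. Rats of Hg8, C and S were set against normal rats 11 and 12, and all other groups against normal rats 1 to 3. Levels are intensities divided by the median intensity of the array, so a level of 1 is that of a typical probe, and levels under 0.1 were set to 0.1, the floor. Changes are log2 differences with standard errors (SE) from limma over all 31 rats, and a gene was called when its Benjamini-Hochberg adjusted p over all probes tested was under 0.05. All comparisons with normal rats of a lot share those rats. These are whole-kidney extracts, in which fewer cells of a type and less RNA per cell cannot be told apart. The kidney labels fitted their kidney markers: over all rats the median level was 45.7 for Lrp2 of the proximal tubule and 34.4 for Umod of the loop of Henle. Of the adrenal genes, Cyp11b1 was at the floor in 29 of 31 rats. Cyp21a1 was at 0.346 to 0.556, with a median of 0.46 and 0 rats at the floor. The array of IR8 rat 3 was unlike those of IR8 rats 1 and 2: its median correlation with the group was 0.928, against 0.959 and 0.961, and it had 1.65% of its probes at the floor, against 10.2% and 9.91%. Sham rat 3 was out of line with the probe names as deposited and was moved by 2 lines.

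Cxcl1 and Cxcl2 attract neutrophils through the receptor Cxcr2. Cxcl10 is an interferon-induced ligand of Cxcr3 on activated T cells and NK cells. Ccl2 attracts monocytes through Ccr2, Ccl4 and Ccl5 act on macrophages and T cells, and Ccl20 attracts Ccr6-bearing lymphocytes and dendritic cells. Many of these genes are induced within hours by the transcription factor NF-κB, and injured tubular cells as well as leukocytes are known to make them.

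The sequences just upstream of the genes are shown because the genes with the largest changes rose together after ischemia. RefSeq (GRCr8) gave the 250 bases before the start for 4 of the 8 genes: Cxcl1 at chr14:17479322-17479571 on the minus strand, Cxcl2 at chr14:17467256-17467505 on the minus strand, Cxcl10 at chr14:15988816-15989065 on the plus strand and Ccl20 at chr9:91836909-91837158 on the plus strand. Ccl2, Ccl3, Ccl4 and Ccl5 are named only. Capitals mark matches on either strand to the NF-κB consensus (κB) and, in Cxcl10, also to the AP-1 motif TGANTCA and to the core of the interferon-stimulated response element (ISRE).
Cxcl1: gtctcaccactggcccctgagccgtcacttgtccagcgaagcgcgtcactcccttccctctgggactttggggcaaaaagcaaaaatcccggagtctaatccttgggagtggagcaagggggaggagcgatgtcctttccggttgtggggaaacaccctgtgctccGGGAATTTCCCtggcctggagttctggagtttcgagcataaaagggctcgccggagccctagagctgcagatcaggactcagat
Cxcl2: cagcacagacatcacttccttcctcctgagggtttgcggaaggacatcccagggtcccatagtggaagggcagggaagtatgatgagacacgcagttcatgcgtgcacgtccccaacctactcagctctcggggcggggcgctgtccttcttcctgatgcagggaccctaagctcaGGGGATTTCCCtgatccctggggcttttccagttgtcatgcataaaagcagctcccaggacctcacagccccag
Cxcl10: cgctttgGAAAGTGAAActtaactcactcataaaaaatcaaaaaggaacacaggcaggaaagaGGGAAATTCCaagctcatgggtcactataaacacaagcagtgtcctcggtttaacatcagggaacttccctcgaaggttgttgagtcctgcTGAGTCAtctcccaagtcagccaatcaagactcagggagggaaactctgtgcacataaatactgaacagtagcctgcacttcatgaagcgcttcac
Ccl20: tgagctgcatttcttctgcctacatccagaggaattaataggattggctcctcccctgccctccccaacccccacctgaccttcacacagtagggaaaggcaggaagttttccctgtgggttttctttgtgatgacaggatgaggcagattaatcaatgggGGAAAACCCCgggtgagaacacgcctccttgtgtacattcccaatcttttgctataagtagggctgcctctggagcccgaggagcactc
The κB match lay at bases -84 to -74 from the start in Cxcl1 and -74 to -64 in Cxcl2, in each case as overlapping matches on both strands. It lay at -187 to -178 in Cxcl10 and at -89 to -80 in Ccl20. Cxcl10 also held the AP-1 match at -96 to -90 and the ISRE match at -243 to -234, which overlapped no κB match. Among 33469 rat promoters of this length, 3.54% held a κB match, 6.34% an AP-1 match and 3.41% an ISRE match. A match describes these letters and is not a measured binding site.

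After 2 h of reperfusion 5 of the 7 chemokine genes rose above normal and 0 fell, where 7.36% of all 9468 probes tested were called higher and 7.37% lower. At 8 h 6 of 7 rose and 0 fell, where 20.8% of all probes were called higher and 20.9% lower. In the αMSH-treated ischemic rats 6 of 7 rose at 2 h and 0 fell, where 6.69% of all probes were called higher and 6.61% lower. The median change of the 7 genes was 1.76 in IR2, 2.58 in IR2M and 2.28 in IR8 on the log2 scale, beside -0.06, -0.08 and 0.01 over all probes tested.

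**Figure D1:**
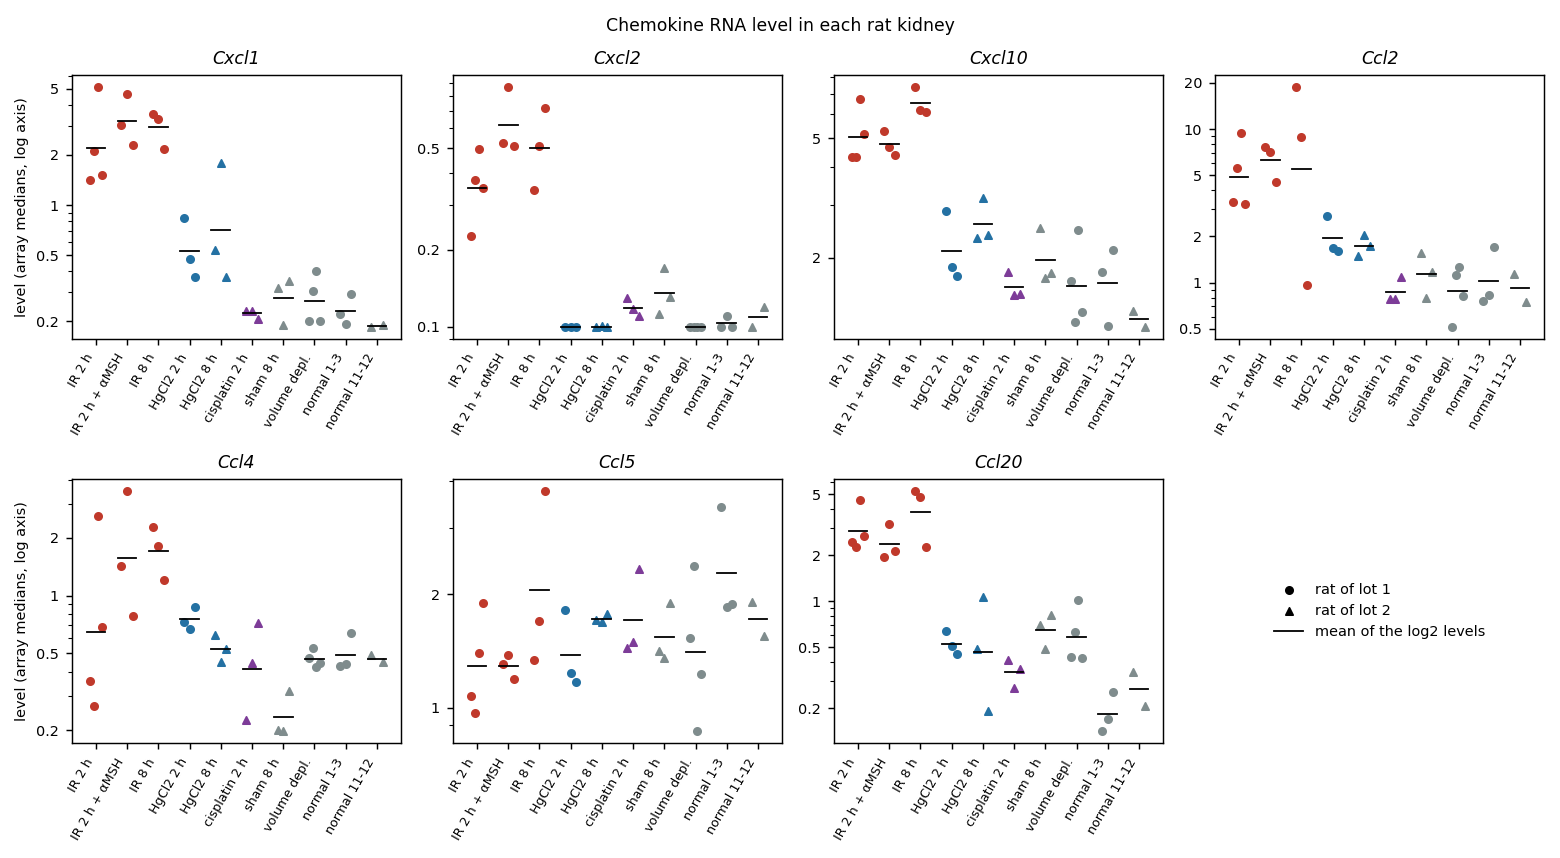
RNA level of each chemokine in each rat kidney, in array medians on a log axis; each point is a rat, circles are rats of lot 1 and triangles rats of lot 2, and the line is the mean of the log2 levels. Cxcl1, Cxcl10 and Ccl20 lay above all normal rats in every ischemic rat, Ccl5 did not, and Cxcl2 lay at the floor of 0.1 in all 3 Hg2 and all 4 VD rats.

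Cxcl1 was at 1.42, 2.13, 5.15 and 1.52 array medians in IR2 rats, 3.04, 4.62 and 2.30 in IR2M rats and 3.52, 3.27 and 2.18 in IR8 rats, against 0.220, 0.193 and 0.294 in normal rats 1 to 3. Every ischemic rat lay above every normal rat. The log2 change from normal was 3.25 ± 0.44 in IR2 (SE, adjusted p = 6.81e-06), 3.78 ± 0.47 in IR2M (adjusted p = 2.51e-06) and 3.66 ± 0.47 in IR8 (adjusted p = 7.92e-07).

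Cxcl2, the other Cxcr2 ligand, was at 0.227, 0.376, 0.498 and 0.348 in IR2 rats, 0.525, 0.871 and 0.511 in IR2M rats and 0.342, 0.510 and 0.719 in IR8 rats, against 0.1, 0.110 and 0.1 in normal rats. Groups did not overlap, and normal rats 1 and 3 were at the floor. The log2 change was 1.76 ± 0.22 in IR2 (adjusted p = 2.15e-06), 2.58 ± 0.23 in IR2M (adjusted p = 1.51e-08) and 2.28 ± 0.23 in IR8 (adjusted p = 2.57e-08). These sizes depend on the floor: with it at 0.25 of the array median the Cxcl2 change in IR2 was 0.51 ± 0.19 and missed the threshold (adjusted p = 0.071), and with it at 0.02 the change was 2.08 ± 0.24.

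Cxcl10 was at 4.33, 4.33, 6.72 and 5.16 in IR2 rats, 5.29, 4.67 and 4.38 in IR2M rats and 7.42, 6.19 and 6.10 in IR8 rats, against 1.79, 1.19 and 2.13 in normal rats. The ischemic rats all lay above the highest normal rat, with a narrow spread within each group. Its log2 change was 1.61 ± 0.23 in IR2 (3.05-fold, adjusted p = 1.2e-05), 1.53 ± 0.24 in IR2M (adjusted p = 6.94e-05) and 1.98 ± 0.24 in IR8 (3.96-fold, adjusted p = 3.91e-07).

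Ccl20 had the largest change of the 7 genes in IR2 and IR8. On the brighter probe it was at 2.44, 2.26, 4.54 and 2.65 in IR2 rats, 1.94, 3.21 and 2.13 in IR2M rats and 5.25, 4.78 and 2.27 in IR8 rats, against 0.142, 0.170 and 0.257 in normal rats. The groups were far apart. The log2 change was 3.95 ± 0.42 in IR2 (adjusted p = 1.78e-07), 3.68 ± 0.45 in IR2M (adjusted p = 1.73e-06) and 4.38 ± 0.45 in IR8 (20.9-fold, adjusted p = 2.25e-08). The dimmer Ccl20 probe changed by 3.88, 3.56 and 4.69 in the same 3 groups. Over 31 rats the log2 levels of the 2 probes correlated at 0.977, but in IR8 rat 3 they stood at 2.27 and 4.39, a log2 difference of -0.95 beside a median difference of 0.31.

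Ccl2 was at 3.34, 5.61, 9.47 and 3.26 in IR2 rats, 7.65, 7.09 and 4.54 in IR2M rats and 19.0, 8.91 and 0.969 in IR8 rats, against 0.764, 0.837 and 1.70 in normal rats. IR2 and IR2M did not overlap with normal. In IR8, rats 1 and 2 were above all normal rats and rat 3 was within their range. The log2 change was 2.25 ± 0.60 in IR2 (4.77-fold, adjusted p = 0.0105), 2.61 ± 0.64 in IR2M (adjusted p = 0.00698) and 2.41 ± 0.64 in IR8 (adjusted p = 0.00368). Without IR8 rat 3 the IR8 change of Ccl2 was 3.66 ± 0.45 (adjusted p = 4.96e-07), and in a fit of these groups' rats alone, all IR8 rats included, it missed the threshold (adjusted p = 0.111). Without normal rat 1 the IR2 change of Ccl2 was 2.04 and missed the threshold (adjusted p = 0.0594).

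Ccl4, also known as MIP-1β and an attractant of macrophages, was at 0.361, 0.268, 2.58 and 0.687 in IR2 rats, 1.42, 3.50 and 0.786 in IR2M rats and 2.28, 1.81 and 1.20 in IR8 rats, against 0.429, 0.441 and 0.636 in normal rats. IR2 rats spanned both sides of normal, with rats 1 and 2 below it and rat 3 well above. The log2 change was 0.38 ± 0.52 in IR2 (adjusted p = 0.737), 1.67 ± 0.56 in IR2M (adjusted p = 0.048) and 1.79 ± 0.56 in IR8 (adjusted p = 0.0119). The IR2M call for Ccl4 was lost without any of normal rats 1, 2 or 3 or IR2M rats 1 or 2, with a lowest change of 1.10 (adjusted p = 0.25) without IR2M rat 2. It was also lost with the floor at 0.02 (adjusted p = 0.0515) and with no filter on low values (adjusted p = 0.0555).

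Ccl5, also known as RANTES and made by T cells and tubular cells, was at 1.08, 0.970, 1.40 and 1.89 in IR2 rats, 1.31, 1.38 and 1.19 in IR2M rats and 1.34, 1.70 and 3.76 in IR8 rats, against 3.40, 1.85 and 1.89 in normal rats. It was the only 1 of the 7 genes called in no comparison with normal rats or between treated groups. Its log2 change was -0.82 ± 0.32 in IR2 (adjusted p = 0.0868), -0.82 ± 0.34 in IR2M (adjusted p = 0.121) and -0.16 ± 0.34 in IR8 (adjusted p = 0.752). Normal rat 1 and IR8 rat 3 were the highest rats of their groups for Ccl5, and without IR2 rat 4 the IR2 change of -1.01 passed the threshold (adjusted p = 0.0485).

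**Figure D2:**
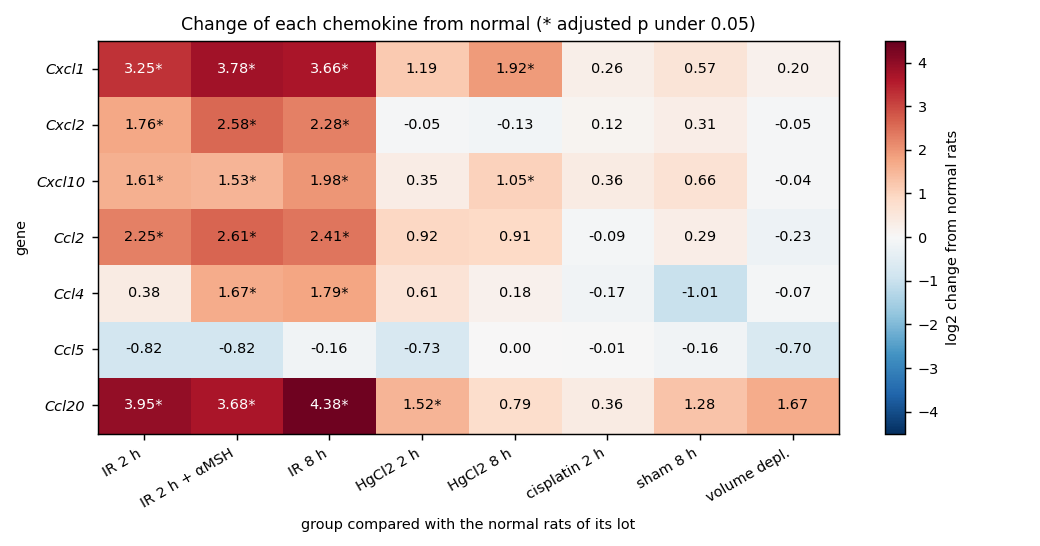
Log2 change of each chemokine (rows, brightest probe) from the normal rats of its lot in each of 8 groups (columns); the colour and the printed number give the change, and a star marks an adjusted p under 0.05. Stars fill the ischemic columns except for Ccl5 and for Ccl4 in IR2, 3 stars stand in the mercuric chloride columns, and 0 in the cisplatin, sham and volume depletion columns.

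Under mercuric chloride fewer of the genes were called. In Hg2, 1 of 7 rose and 0 fell, where 3.07% of all probes were called higher and 4.61% lower. In Hg8, 2 of 7 rose and 0 fell, where 5.27% of all probes were called higher and 5.66% lower. Ccl20 was at 0.643, 0.511 and 0.452 in Hg2 rats, against 0.142, 0.170 and 0.257 in normal rats 1 to 3, with no overlap. Its log2 change of 1.52 ± 0.45 passed narrowly (adjusted p = 0.0349) and missed the threshold with the replicate number as a block (1.52 ± 0.47, adjusted p = 0.0573) and on the other Ccl20 probe (1.19 ± 0.46, adjusted p = 0.125). The Ccl20 call was also lost without any of Hg2 rats 1, 2 or 3 or normal rats 1 or 2, with a lowest change of 1.34.

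In Hg8 the called genes were Cxcl1 and Cxcl10. Cxcl1 was at 0.536, 1.79 and 0.367 in Hg8 rats, against 0.185 and 0.189 in normal rats 11 and 12, a log2 change of 1.92 ± 0.53 (adjusted p = 0.0166). Cxcl10 was at 2.34, 3.17 and 2.38 in Hg8 rats, against 1.33 and 1.18 in normal rats, a log2 change of 1.05 ± 0.27 (adjusted p = 0.0108). Neither overlapped with normal, and rat 2 was the highest Hg8 rat for both. Without Hg8 rat 2, Cxcl1 changed by 1.25 (adjusted p = 0.129) and Cxcl10 by 0.91 (adjusted p = 0.0595), and both calls were also lost without normal rat 11 or normal rat 12. Without Hg8 rat 3, Ccl20 changed by 1.43 and was called as well (adjusted p = 0.0445), beside 0.79 ± 0.50 with all rats (adjusted p = 0.4).

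Cxcl1 was also above all normal rats in Hg2, at 0.837, 0.474 and 0.370, but its log2 change of 1.19 ± 0.47 missed the threshold (adjusted p = 0.131). Ccl2 was at 2.72, 1.68 and 1.61 in Hg2 rats and at 1.49, 2.03 and 1.75 in Hg8 rats, with log2 changes of 0.92 ± 0.64 (adjusted p = 0.445) and 0.91 ± 0.72 (adjusted p = 0.55). Hg8 rats lay above normal rats 11 and 12 for Ccl2, at 1.14 and 0.750, and Hg2 rats overlapped with normal rat 3. Cxcl2 stayed at the floor in all Hg2 rats and between 0.1 and 0.101 in Hg8 rats.

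Cisplatin, sham surgery and volume depletion gave 0 calls among the 7 genes in limma, where 0.574%, 0.351% and 0.169% of all probes were called in either direction. At an unadjusted p under 0.05 the counts were 0 genes in C, 2 in S and 2 in VD. Over all probes they were 576 of 9407 in C, 533 of 9410 in S and 565 of 9466 in VD. Ccl20 was among the chemokine genes so counted in both controls. It was at 0.696, 0.490 and 0.808 in S rats, against 0.345 and 0.208 in normal rats 11 and 12, and the log2 change was 1.28 ± 0.50 (adjusted p = 0.584). In VD rats it was at 0.435, 0.632, 1.02 and 0.425, against 0.142, 0.170 and 0.257 in normal rats 1 to 3, and the log2 change was 1.67 ± 0.42 (adjusted p = 0.14). Neither control overlapped with its normal rats for Ccl20, and neither change passed the threshold. The other S gene was Cxcl10, with a log2 change of 0.66 ± 0.27 (adjusted p = 0.68), and the other VD gene was Ccl5, with -0.70 ± 0.32 (adjusted p = 0.794).

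The comparison of IR8 with sham rats of the same time asked what ischemia added to surgery. The groups lie in different lots, so it is the difference between each group's changes from its own normal rats. Of the 7 genes, 5 were higher in IR8 and 0 lower, where 11.9% of all probes were called higher and 11% lower. The log2 difference was 3.11 ± 0.67 for Ccl20 (adjusted p = 0.00135), 3.09 ± 0.70 for Cxcl1 (adjusted p = 0.00222), 2.80 ± 0.84 for Ccl4 (adjusted p = 0.0164), 1.97 ± 0.35 for Cxcl2 (adjusted p = 0.000197) and 1.33 ± 0.36 for Cxcl10 (adjusted p = 0.00922). Ccl4 stood at 2.28, 1.81 and 1.20 in IR8 rats, against 0.201, 0.197 and 0.321 in S rats, and the sham rats were below normal rats 11 and 12, at 0.489 and 0.451. The Ccl4 difference was lost without normal rat 11 (adjusted p = 0.0591) or normal rat 12 (adjusted p = 0.0519). Ccl2 differed by 2.12 ± 0.96 and missed the threshold (adjusted p = 0.121), and passed it without IR8 rat 3 (3.36, adjusted p = 0.000296).

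Ischemia was set against mercuric chloride at each time. At 2 h, within lot 1, 4 of 7 genes were higher in IR2 than in Hg2 and 0 lower, where 8.09% of all probes were called higher and 6.98% lower. The log2 difference was 2.43 ± 0.42 for Ccl20 (5.39-fold, adjusted p = 0.000191), 2.07 ± 0.44 for Cxcl1 (4.18-fold, adjusted p = 0.00174) and 1.26 ± 0.23 for Cxcl10 (2.40-fold, adjusted p = 0.000313). Cxcl2 was at the floor in all Hg2 rats, so it was at least 3.49-fold higher in IR2 with the floor at 0.1 (adjusted p = 1.88e-06), and with the floor at 0.25 it missed the threshold (log2 difference 0.51, adjusted p = 0.0704). Leaving out any single rat kept all 4 calls. Ccl2 did not overlap, with a lowest IR2 rat of 3.26 against a highest Hg2 rat of 2.72, but its log2 difference of 1.34 ± 0.60 missed the threshold (adjusted p = 0.148).

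At 8 h, across lots, 2 of 7 genes were higher in IR8 than in Hg8 and 0 lower, where 6.78% of all probes were called higher and 5.06% lower. The log2 difference was 3.59 ± 0.67 for Ccl20 (12.1-fold, adjusted p = 0.000704) and 2.40 ± 0.35 for Cxcl2 (adjusted p = 4.99e-05). Cxcl2 lay at 0.1, 0.101 and 0.1 in Hg8 rats, at or next to the floor, so its difference depends on the floor: it was 1.00 with the floor at 0.25 (adjusted p = 0.0321) and 2.79 with the floor at 0.02. Ccl20 was at 5.25, 4.78 and 2.27 in IR8 rats, against 0.486, 1.07 and 0.193 in Hg8 rats, with no overlap. With only the rats compared in the fit, the Ccl20 call on this brighter probe was lost (3.59 ± 0.83, adjusted p = 0.0511). Cxcl1 differed by 1.74 ± 0.70 (adjusted p = 0.114), and without Hg8 rat 2 by 2.41 (adjusted p = 0.0131). Ccl2 differed by 1.5 ± 0.96 (adjusted p = 0.369), and without IR8 rat 3 by 2.75 (adjusted p = 0.00388).

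Against cisplatin, the other toxin and a comparison across lots, 3 of 7 genes were higher in IR2 and 0 lower, where 1.52% of all probes were called higher and 0.682% lower. Ccl20 was at 2.26 to 4.54 in IR2 rats, against 0.416, 0.271 and 0.360 in C rats, and differed by 3.60 ± 0.65 (adjusted p = 0.00201). Cxcl1 was at 1.42 to 5.15 in IR2 rats, against 0.232, 0.231 and 0.208 in C rats, and differed by 2.99 ± 0.69 (adjusted p = 0.0154). Cxcl2 differed by 1.64 ± 0.34 (adjusted p = 0.00698), and by 0.51 with the floor at 0.25 (adjusted p = 0.573). The Cxcl1 call was lost without normal rat 11 (adjusted p = 0.0789) or normal rat 12 (adjusted p = 0.0858), and the Cxcl2 call without normal rat 12 (adjusted p = 0.0736).

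Time courses were compared within each injury. From 2 to 8 h of reperfusion, 1 of 7 genes was higher in IR8 than in IR2 and 0 lower, where 20.5% of all probes were called higher and 17.2% lower. That gene was Ccl4, with a log2 difference of 1.41 ± 0.52 (adjusted p = 0.0363), although IR2 rat 3 at 2.58 was above all IR8 rats. With the replicate number as a block the Ccl4 difference missed the threshold (1.41 ± 0.57, adjusted p = 0.0608), as it did without IR2 rat 1, 2 or 4 or IR8 rat 1 or 2, with a lowest value of 0.98. Cxcl2 differed by 0.52 ± 0.22 (adjusted p = 0.0624), Ccl5 by 0.67 ± 0.32 (adjusted p = 0.103) and Cxcl10 by 0.37 ± 0.23 (adjusted p = 0.204). Ccl2 differed by 0.16 ± 0.60 with all rats and by 1.41 without IR8 rat 3, where it passed (adjusted p = 0.0111). Without IR2 rat 3 or without IR8 rat 1 Cxcl2 passed too (0.69, adjusted p = 0.015, and 0.80, adjusted p = 0.00635), and Ccl5 passed without IR8 rat 1 (0.97, adjusted p = 0.0276) or IR2 rat 4 (0.85, adjusted p = 0.0486).

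Between Hg8 and Hg2, across lots, 0 of 7 genes passed in limma, where 0.693% of all probes were called. There 0 of the 7 genes had an unadjusted p under 0.05, beside 885 of 9385 probes. Between Hg8 and S, within lot 2, 0 of 7 passed, where 13.1% of all probes were called. There 2 of the 7 genes had an unadjusted p under 0.05, beside 2303 of 9491 probes. The 2 genes were Cxcl1, with a log2 difference of 1.35 ± 0.47 (adjusted p = 0.0598), and Ccl4, with 1.18 ± 0.56 (adjusted p = 0.191). For both genes Hg8 rats lay above all S rats.

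αMSH was compared with untreated ischemia at 2 h. In limma 0 of 7 genes and 0% of all 9458 probes were called, while 2 of the 7 genes and 342 probes had an unadjusted p under 0.05. The lowest adjusted p over all probes was 0.703. The 2 genes were Cxcl2, with a log2 difference of 0.82 (95% interval 0.37 to 1.27, adjusted p = 0.769) and no overlap between groups, and Ccl4, with 1.29 (0.21 to 2.37, adjusted p = 1) and overlapping groups. Both values were higher in the αMSH-treated rats. The interval ran from -0.38 to 1.44 for Cxcl1, from -0.88 to 1.59 for Ccl2, from -1.13 to 0.59 for Ccl20, from -0.55 to 0.39 for Cxcl10 and from -0.65 to 0.66 for Ccl5. A fall of more than 1.13 on the log2 scale lay outside the interval of each of the 7 genes on its brightest probe.

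**Figure D3:**
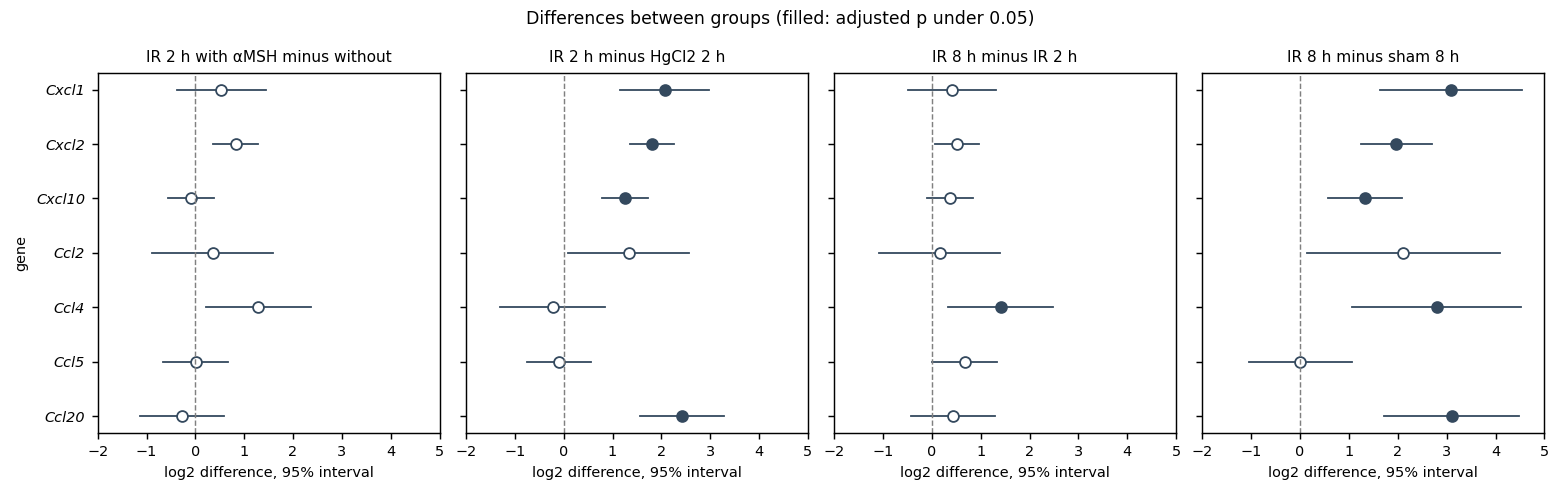
Log2 difference of each chemokine (brightest probe) between pairs of groups, with its 95% interval; filled points have an adjusted p under 0.05 over all probes tested and the dashed line marks no difference. The αMSH panel holds 0 filled points, the panels of ischemia against mercuric chloride at 2 h and against sham at 8 h hold 4 and 5, and the panel of 8 h against 2 h holds 1, Ccl4.

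In some groups 1 rat was the highest in most of the chemokines. IR2 rat 3 was the highest of its group in 6 of 7 genes, all but Ccl5. IR2M rat 2, IR8 rat 1 and Hg8 rat 2 were each the highest in 5 of 7. In C, rats 1 and 3 were the highest in 4 and 3 genes, and in S rats 1, 2 and 3 in 2, 1 and 4. Without Cxcl2, Hg2 rat 1 was the highest in 5 of 6, and VD rats 2 and 3 in 2 and 4. Such counts were not made over all probes. IR2 rat 3 also had the fewest probes at the floor in its group, 8.43%. Over the 26 treated rats the changes from the lot's normal mean correlated at 0.913 between Cxcl1 and Cxcl10, 0.877 between Ccl2 and Cxcl1 and 0.872 between Ccl20 and Cxcl1. Ccl5 correlated with the others between -0.372 and -0.046. These are descriptions, since the rats share their treatment, their arrays and their normal rats. The correlations run over all treated groups together, so differences between groups enter them. In the 5 rats with 2 arrays, the 40 pairs of probe values differed by a median of 0.124 on the log2 scale and by at most 0.734, for Ccl2 in VD rat 1.

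Genes outside the set whose changes ran most like each member were sought among 5711 named genes over the same 26 rats. They were Arf5, Tes and Sertad2 for Cxcl1 (r of 0.914, 0.908 and 0.908), Edn1, Bcr and Cgn for Cxcl2 (0.939, 0.935 and 0.929) and Ifit3, Cryab and Rgs2 for Cxcl10 (0.923, 0.905 and 0.897). For Ccl2 they were Tnfrsf1a, Bag3 and S100a10 (0.933, 0.928 and 0.894), and for Ccl20 Nrarp, Enc1 and Hk2 (0.907, 0.895 and 0.89). Ccl4 had lower values, with Ddx50, Cd40 and Rnf122 (0.81, 0.791 and 0.782). The genes most like Ccl5 were Lck, Rnf114 and Cd8b (0.83, 0.805 and 0.785), of which Lck and Cd8b are T cell genes. Cd8b lay at or near the floor, at 0.1 to 0.227 over all rats, with 10 rats at the floor.

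Other chemokines were counted from a list. Of 29 further chemokine genes listed, 11 were tested: 1 rose and 1 fell in IR2, 0 rose and 1 fell in IR2M, 3 rose and 3 fell in IR8, 0 rose and 2 fell in Hg2, and 0 were called in Hg8, C, S or VD. Over all probes 7.36% were called higher and 7.37% lower in IR2, 6.69% and 6.61% in IR2M, 20.8% and 20.9% in IR8, and 3.07% and 4.61% in Hg2. Their median log2 change was -0.13 in IR2 and 0.30 in IR8. Cxcl11, a Cxcr3 ligand like Cxcl10, rose by 0.60 ± 0.18 in IR2 and 1.95 ± 0.20 in IR8 and fell by 0.78 in Hg2. Cxcl9, the third Cxcr3 ligand, fell by 1.07 in IR2 and 0.81 in IR8. Cxcl12, the ligand of Cxcr4, fell by 0.59 in IR2M and 2.01 in IR8.

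Of 22 chemokine receptor genes, 9 were tested. At 8 h of reperfusion 5 rose and 0 fell, where 20.8% of all probes were called higher and 20.9% lower: Cxcr2 (0.81 ± 0.20), Ccr1 (0.80 ± 0.12), Cx3cr1 (0.73 ± 0.18), Ccr2 (0.56 ± 0.19) and Ccr7 (0.27 ± 0.07). At 2 h of reperfusion only Cx3cr1, the fractalkine receptor of monocytes, was called. It fell by 0.62 in IR2 and 0.63 in IR2M, where 7.37% and 6.61% of all probes were called lower. In Hg2 the scavenging receptor Ackr3 fell by 0.79, where 4.61% of all probes were called lower. In Hg8, C, S and VD 0 receptors were called.

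Genes of NF-κB and the cytokines upstream of it rose in part, as 13 of 24 listed were tested. In IR2 7 rose and 1 fell, in IR2M 6 rose and 1 fell, and in IR8 6 rose and 1 fell, where 7.36%, 6.69% and 20.8% of all probes were called higher in the 3 groups. Il1b, an inducer of chemokines, rose by 1.02 ± 0.26, 1.38 ± 0.27 and 2.75 ± 0.27 in IR2, IR2M and IR8. The NF-κB inhibitor gene Nfkbie rose by 0.97 ± 0.23, 1.08 ± 0.24 and 1.79 ± 0.24, and Rela, an NF-κB subunit, by 0.79 ± 0.08, 0.86 ± 0.09 and 0.78 ± 0.09. The gene that fell was Tnip1, a partner of the NF-κB brake A20, by 0.56, 0.54 and 0.36. In Hg2 only Il1b rose (1.87 ± 0.27) and in Hg8 only Rela (0.34 ± 0.10), where 3.07% and 5.27% of all probes were called higher. Of the 13, 0 were called in C, S or VD, where 0.574%, 0.351% and 0.169% of all probes were called.

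Of 20 interferon response genes, 14 were tested in the lot 1 comparisons and 15 in lot 2. In IR2 4 rose and 1 fell, in IR2M 5 rose and 1 fell, and in IR8 5 rose and 0 fell, beside the same 7.36%, 6.69% and 20.8% of all probes. Oasl rose by 2.12 ± 0.26, 2.51 ± 0.28 and 2.20 ± 0.28 in the 3 groups, Ifit3 by 1.61 ± 0.29, 1.87 ± 0.31 and 1.96 ± 0.31, and the transcription factor gene Irf1 by 1.22 ± 0.20, 1.28 ± 0.22 and 1.26 ± 0.22. Psmb9, an immunoproteasome subunit, fell by 0.56 in IR2 and rose by 0.66 ± 0.19 in Hg8, where it was the only gene of the list called. In Hg8 5.27% of all probes were called higher. None of the list was called in Hg2, C, S or VD.

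A list of 12 genes that limit inflammation was counted in the same way. Of these, 8 were tested, and 6 rose in IR2, 6 in IR2M, 5 in IR8, 3 in Hg2, 4 in Hg8, 3 in C, 2 in S and 0 in VD, where 7.36%, 6.69%, 20.8%, 3.07%, 5.27%, 0.532%, 0.298% and 0.0739% of all probes were called higher in the same order, while Nr3c1, the glucocorticoid receptor, fell in IR2 and IR8. Hmox1, the stress-induced heme oxygenase, rose by 3.42 ± 0.28 in IR2, 3.73 ± 0.29 in IR2M and 5.13 ± 0.29 in IR8. It also rose by 6.54 ± 0.29 in Hg2, 6.90 ± 0.33 in Hg8 and 1.52 ± 0.33 in C. Zfp36 encodes a protein that destabilises chemokine and cytokine RNA. Zfp36 rose in all 3 ischemic groups, by 2.12 ± 0.30 in IR2, 2.12 ± 0.32 in IR2M and 1.27 ± 0.32 in IR8. It also rose by 1.99 ± 0.36 in Hg8, 2.44 ± 0.36 in C and 1.77 ± 0.36 in S. The genes called in C were Zfp36, Hmox1 and Tsc22d3, and those in S were Zfp36 and Tsc22d3, groups in which 0 of the 7 chemokines were called.

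**Figure D4:**
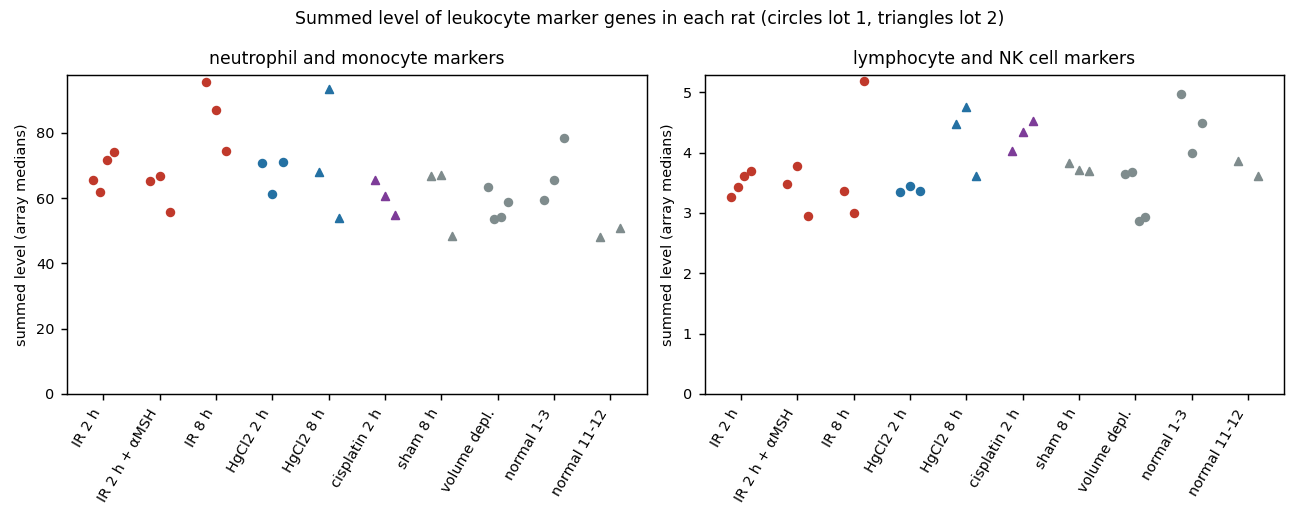
Summed level of the neutrophil and monocyte markers (left) and of the lymphocyte and NK cell markers (right) in each rat, in array medians on axes that start at 0; each point is a rat, circles of lot 1 and triangles of lot 2. The IR2 sums lie within the range of normal rats 1 to 3 on the left and below all 3 of them on the right.

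Leukocyte markers were followed beside the chemokines. Of 25 neutrophil and monocyte markers, 14 were tested, and their summed level was 62.0 to 74.3 in IR2, 55.7 to 66.7 in IR2M and 74.4 to 95.5 in IR8, against 59.5 to 78.5 in normal rats 1 to 3. It was 61.3 to 71.2 in Hg2 and 53.6 to 63.4 in VD. In lot 2 it was 53.8 to 93.3 in Hg8, 54.7 to 65.6 in C and 48.4 to 67.2 in S, against 48.2 to 50.8 in normal rats 11 and 12. Cd74 alone made up 24.1 to 47.7 of the sum over all rats. In IR2 2 markers rose, S100a9 (3.53 ± 0.43) and Cd14 (1.21 ± 0.24), and 3 fell, Ly86, Ptprc and Csf1r. Over all probes 7.36% were called higher and 7.37% lower in IR2. In IR8 7 of the 14 rose and 0 fell, where 20.8% of all probes were called higher and 20.9% lower. Among the 7 were S100a9 (5.02 ± 0.46), Cd14 (2.00 ± 0.26) and C1qb (1.83 ± 0.24). S100a9, a calcium-binding protein abundant in neutrophils, also rose in Hg2 (2.35 ± 0.46), Hg8 (3.53 ± 0.51) and S (2.47 ± 0.51), groups in which 1, 2 and 0 of the chemokines were called. In Hg2 S100a9 was the only marker that rose and Itgam fell by 0.45, where 3.07% of all probes were called higher and 4.61% lower. In Hg8 2 markers rose and 0 fell, and in S 1 rose and 0 fell. Over all probes 5.27% were called higher and 5.66% lower in Hg8, and 0.298% and 0.0531% in S. In IR2M 2 rose and 3 fell, Ly86, Ptprc and Csf1r, where 6.69% of all probes were called higher and 6.61% lower. In C and VD 0 were called.

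Of 21 lymphocyte and NK cell markers, 12 were tested, and Cd4 was at the floor in 19 of 31 rats. Their summed level was 3.26 to 3.70 in IR2, 2.95 to 3.78 in IR2M and 3.00 to 5.18 in IR8, against 4.00 to 4.98 in normal rats 1 to 3. It was also below all 3 of these normal rats in Hg2, at 3.35 to 3.45, and in VD, at 2.87 to 3.68. The highest IR8 rat, rat 3, was also the highest for Ccl5. In IR2 Cd2, Cd5 and Lck fell, in IR2M Cd2, Klrd1 and Lck, in IR8 Cd5 and in Hg2 Cd28 and Gzma. Over all probes 7.37%, 6.61%, 20.9% and 4.61% were called lower in the same order. Of the lymphocyte and NK cell markers 0 rose in any group. The part of these cells in the chemokine values was not tested.

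Of 8 endothelial markers 7 were tested and 2 rose in IR2, where 7.36% of all probes were called higher. Both are selectins, through which leukocytes attach to the vessel wall. Selp rose by 2.09 ± 0.37 in IR2, 3.27 ± 0.40 in IR2M and 1.71 ± 0.40 in IR8, and Sele by 1.36 ± 0.29, 2.27 ± 0.31 and 1.44 ± 0.31. In IR8 Pecam1 also rose, by 0.45 ± 0.16, while Vwf fell by 1.81 and Flt1 by 0.33. That made 3 higher and 2 lower in IR8, where 20.8% of all probes were called higher and 20.9% lower. Of 6 proximal tubule markers tested, 0 fell in IR2, 5 in IR8, 1 in Hg2, 4 in Hg8 and 1 in VD, where 7.37%, 20.9%, 4.61%, 5.66% and 0.0951% of all probes were called lower. Of 5 markers of the loop of Henle and collecting duct tested, 4 fell in IR8. The erythroid gene Alas2 rose by 2.49 ± 0.44 in IR2, 2.28 ± 0.47 in IR2M, 1.92 ± 0.47 in IR8 and 1.77 ± 0.53 in Hg8, the groups with the most chemokine calls. Its part in those calls was not tested.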

How the data were processed

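Kidney RNA of 31 rats was hybridised to 36 CodeLink arrays by the CodeLink standard protocol with a biotin label, per the labels. How the arrays were scanned, background-corrected and scaled was not stated by any source used here. The unit of the deposited values is recorded as "other": each value the authors deposited is 2 raised to the power of a linear intensity divided by about its array median, read from the values themselves. Log2 of it was therefore taken as the intensity, divided by the array median, set to at least 0.1 and put on a log2 scale. A deposited 0.5 was a fill value and was left out (0.97% of values). The 9911 probes were named from the platform annotation, 7178 with 1 symbol, 51 through RefSeq accessions, 21 with several and 2661 unnamed. The values of sham rat 3 were moved by 2 lines, which raised its correlation with the other arrays to 0.9843, against 0.0652 as deposited.

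The 2 arrays of a rat were averaged. The labels name the lots and their array numbers, not each rat's lot, so lots follow the numbering of the normal rats. Over all probes, treated rats given lot 2 correlated with the difference between lot 2 and lot 1 normal rats at 0.239 to 0.421, and those given lot 1 at -0.503 to -0.096. Limma 3.58.1 in R 4.3.3 (lmFit, eBayes) was fitted with group and lot as terms over 31 rats, with 21 residual degrees of freedom. Probes measured in a share of at least 0.667 of the rats, in 2 or more rats per compared group, and above the floor in at least 3 were tested, and p-values were adjusted by Benjamini-Hochberg in each of 16 comparisons. The script was tested on simulated data with known changes. There were 9 alternatives (quantile normalization, a floor of 0.25 or 0.02, no filter on low values, no lot term, the first array of each rat, only the rats compared, the replicate number as a block, sham rat 3 as deposited), and each rat was left out in turn. The labels give no reason to pair rats, but same-numbered rats deviated together in every pair (correlations of 0.116 to 0.534 over probes) in Hg2 and VD against N, IR8 against IR2, IR2 against Hg2 and Hg8 against S, so the fit with the replicate number as a block is given beside the results whose calls it changed. Lists give counts and up to 4 called genes with the largest changes, and each gene in a list is read from its brightest probe. The members and lists were chosen with earlier results of these data known. The number of arrays limits the precision. P-values measure the spread between rats.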

Additional observations from a re-analysis of the deposited data

Results flagged for a closer look

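Ccl5 in normal rat 1 was at 3.40 array medians, far above the other 4 normal rats, which lay between 1.55 and 1.91. A gap of this size to the nearest value, relative to the range of the group, is seen by chance in about 1 in 20 groups.

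Ccl4 differed between 8 h and 2 h of reperfusion by a log2 change of 1.41, tested as a difference in limma (adjusted p = 0.0363), with 1 IR2 rat above all IR8 rats.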

How the results depend on the processing

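Of the 7 chemokine genes, with 5 called in IR2 against N, 6 in IR2M and 6 in IR8, these counts held within 1.5 times under all alternatives but sham rat 3 as deposited, which gave 3 in IR2. In the other comparisons the counts moved more. With that sham rat as deposited, Hg2 and Hg8 against N had 0 calls, IR8 against IR2 0, IR8 against Hg8 1, IR2 against C 1, IR8 against S 2 and Hg8 against S 1. Over all probes, 300 were then called in IR2, 63 in Hg2 and 153 in Hg8 against N. The main fit called 1395, 727 and 1029. In IR8 against IR2 956 probes were called, beside 3581 in the main fit. Without the lot term, Hg2 and S against N had 2 and 1, IR8 against Hg8 6 and IR2 against C 5. Over all probes, 1020 were then called in Hg2 and 250 in S against N, beside 727 and 33 in the main fit. In IR8 against Hg8 3122 were called, beside 1111. With only the rats compared, Hg2 and Hg8 against N had 2 and 1, IR8 against IR2 0, IR8 against Hg8 1 and Hg8 against S 1. Over all probes, 684 were then called in Hg2 and 820 in Hg8 against N. In IR8 against IR2 1632 were called and in IR8 against Hg8 234. With the floor at 0.25 of the array median, Hg2 against N had 0 and IR8 against IR2 2, where 797 of 8187 and 3429 of 8202 probes were called. Quantile normalization gave 2 in IR8 against IR2, where 3770 of 9330 probes were called, and 1 in Hg8 against S. With sham rat 3 as deposited, the changes of Cxcl2 and Ccl2 in IR2 against N were the same as in the main fit, 1.76 and 2.25. Their SEs were 0.56 and 0.68, beside 0.22 and 0.60 in the main fit. The cause of the shifts in the counts was not tested. Change directions of called genes were not reversed under any of the alternatives.

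With the replicate number as a block, counts were 0 in Hg2 against N and 0 in IR8 against IR2, and otherwise 5 in IR2, 5 in IR2M and 6 in IR8 against N, with Ccl4 in IR2M at an adjusted p of 0.0715. The numbers did not pair the rats in those 3 comparisons or in IR2M against IR2, where the count was 0 (correlations of same-numbered rats -0.586 to 0.48). The block changed no other chemokine call, and with it 627 probes were called in Hg2 against N and 3271 in IR8 against IR2. No such fit was possible for Hg8, C and S against N, or across lots, since normal rats 11 and 12, which every lot 2 change rests on, share their numbers with no other rat.

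Leaving out each rat in turn gave 4 to 6 calls in IR2, 5 to 6 in IR2M, 6 to 6 in IR8, 0 to 1 in Hg2, 0 to 3 in Hg8 and 0 to 0 in C, S and VD against N. It gave 0 to 0 in IR2M against IR2, 0 to 2 in IR8 against IR2, 0 to 0 in Hg8 against Hg2, 4 to 4 in IR2 against Hg2, 2 to 3 in IR8 against Hg8, 1 to 4 in IR2 against C, 4 to 6 in IR8 against S and 0 to 1 in Hg8 against S. Against N in lot 1, calls over all probes were 1008 to 1310 in IR2, 784 to 1283 in IR2M and 3361 to 4342 in IR8. They were 370 to 658 in Hg2 and 7 to 20 in VD. Between treated groups of lot 1 they were 0 to 2 in IR2M and 3095 to 3835 in IR8, each against IR2. In IR2 against Hg2 they were 999 to 1255. Where a group is left with 1 rat, that rat is assumed to vary like the others. Levels near the floor, as for Cxcl2, limit the size of a change.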
